A study of Mus musculus with 72 samples.

Results

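Bmal1 KO epidermis was compared with WT epidermis at time point 1, the sampling time at which the WT level of Arntl was highest among the 6 sampled. Arntl is the gene symbol of Bmal1. Of the 72 libraries of the series, 8 belong to the comparison, 4 KO and 4 WT, each from 1 animal, and they were chosen by their genotype and time point labels. All 18538 genes that passed a filter on low counts were tested. KO mice are labelled Bmal1-stopFL, a Bmal1 allele interrupted by a stop cassette. WT mice are labelled K14-Cre and carry an intact Bmal1. The animals of both groups were C57BL/6 females of 8 weeks, kept in constant darkness for 156 to 176 h. The labels give no hour for time point 1. The K14 promoter drives Cre in keratinocytes, so the WT mice carry a Cre transgene that the KO label does not name, and an effect of Cre and an effect of Bmal1 loss cannot be told apart between these groups. Another genotype, RE (Bmal1-stopFL/K14-Cre), in which Cre removes the cassette in keratinocytes, had 4 animals at the same time point, and its levels are given as a description.

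The protein made from Arntl pairs with CLOCK or NPAS2 and activates genes through E-boxes in their promoters. Among those genes are the Per and Cry repressors, which close a first feedback loop, and the REV-ERB repressors (Nr1d1, Nr1d2), which compete with the ROR activators at ROR elements and so control Arntl itself. The epidermis runs this clock in its own keratinocytes, and it is known there for timing the division and differentiation of these cells across the day.

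Library totals ran from 31.0 to 35.9 M counts in KO and from 35.8 to 40.4 M in WT. The keratinocyte identity held in every library: the summed level of 5 basal keratinocyte markers was 19960 to 23830 CPM (counts scaled by library total and TMM factor to a common size) in KO and 21090 to 22310 CPM in WT. Fibroblast markers summed to 71.99 to 105 CPM in KO and 50.9 to 89.3 CPM in WT. In contrast to the sum, 5 of the 7 fibroblast markers were lower in KO, with a median log2 fold change of -0.50. Of 6 endothelial markers, 1 was tested, Pecam1, with 0.28 to 0.85 CPM in KO and 0.44 to 0.56 CPM in WT. The other 5, Cdh5, Kdr, Cldn5, Tie1 and Emcn, were too low to be tested. The libraries differed in more than genotype. On the first principal component, with 26.6% of the variance, KO replicates 1 and 2 (-39.07 and -31.03) and WT replicate 1 (-22.97) stood apart from KO replicates 3 and 4 (19.71 and 11.42) and WT replicates 2, 3 and 4 (13.46, 26.99 and 21.48). The same 3 libraries had the most RNA of the bulge marker Cd34, with 27.5 and 24.6 CPM in those KO animals and 20.1 CPM in that WT animal, against 2.88 and 2.04 CPM in the other KO animals and 2.95 to 4.11 CPM in the other WT animals. They also had the least of the melanocyte gene Dct, and both genes were named after their values were seen. The 14 hair follicle markers, Cd34 among them, did not split this way in sum. They summed to 5888 and 5968 CPM in KO replicates 1 and 2 and 6713 CPM in WT replicate 1. In the other animals the sums were 6191 and 7753 CPM in KO and 6145 to 6706 CPM in WT. On the second component, with 25.1% of the variance, KO lay between 4.02 and 46.98 and WT between -24.22 and -14.21. Since these are bulk samples, fewer cells of a type and less RNA per cell cannot be told apart.

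At time point 1, 361 of 18538 genes (1.95%) passed an adjusted p of 0.05 in edgeR's quasi-likelihood test. Of these, 186 (1%) were higher and 175 (0.944%) lower in KO. At least 2-fold changes numbered 123 (0.664% of genes tested), 28 of them higher and 95 lower in KO. The 4 KO and 4 WT values did not overlap in 333 of the 361 called genes, against 2327 genes (12.6%) of all genes tested, with KO above WT in 7.02% and below it in 5.53%. The count depended on single animals: leaving out 1 library left 92 calls without WT replicate 4, 108 without WT replicate 2, 114 without KO replicate 4, 128 without WT replicate 3, 166 without KO replicate 3, 169 without KO replicate 1, 290 without KO replicate 2 and 355 without WT replicate 1. Of the 361, 44 genes kept their call in each of the 8 leave-one-out fits, 23 higher and 21 lower in KO. With library totals alone as the scale, 76 genes were higher and 423 lower in KO, whereas 48.1% of calls were higher in KO with RLE size factors and 47.9% in DESeq2. Using library totals moved the median of all genes from 0.0114 to -0.0871 on the log2 scale.

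**Figure D1:**
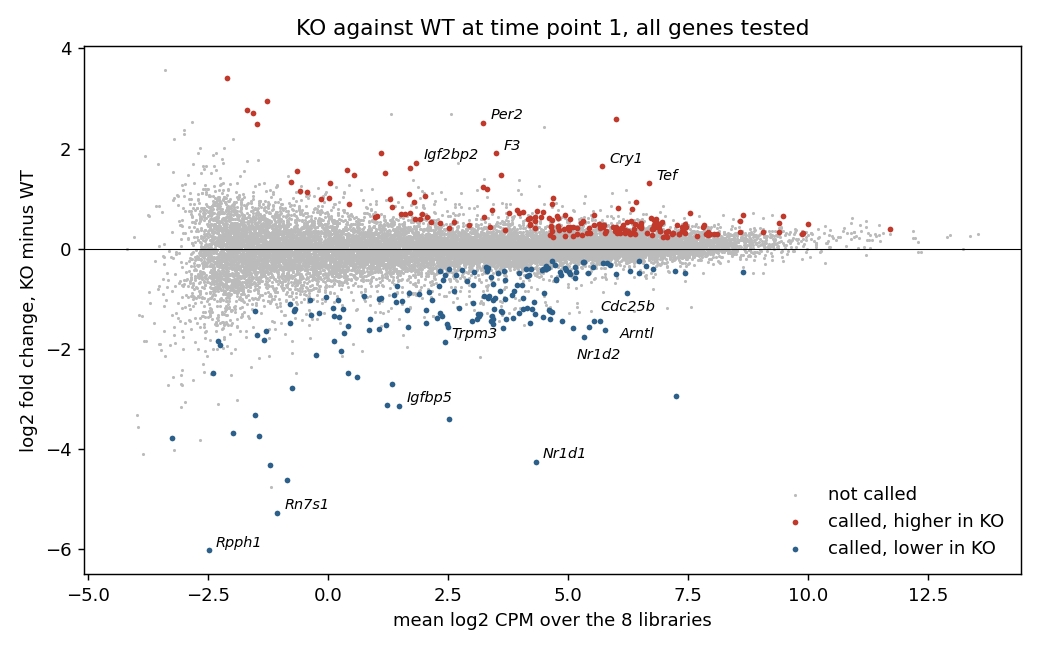
Each point is 1 gene tested, by its mean log2 CPM over the 8 libraries and its log2 fold change, KO minus WT, at time point 1. The 186 genes called higher in KO are red and the 175 called lower are blue. Nr1d1 lies lowest among the well expressed genes, Per2, Cry1 and Tef lie among the red points above 1, and the lowest blue points at the left are short structured RNAs.

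Arntl (chromosome 7, 113207465-113314126, plus strand, GRCm38) had 31.2, 29.9, 32.8 and 30.2 CPM in the 4 KO animals, against 91.4, 96.0, 98.2 and 98.5 CPM in the 4 WT animals. The groups lay far apart and each was tight. No test is attached to this, because the time point was chosen by the WT level of this gene. Reads over Arntl therefore remained in KO at a mean of 31.0 ± 1.30 CPM (SD, n = 4), and the KO mean lay between 29.0 and 31.6 CPM at all 6 time points. The WT mean fell below the KO mean at time points 3 and 4, to 22.8 and 25.5 CPM. RE animals had 64.1 ± 8.84 CPM. The 158 tested genes within 10 Mb of Arntl included 3 calls (1.9%), a share near the 1.95% of all genes.

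Apart from Arntl, 6 of 17 core clock genes were called, 4 higher and 2 lower in KO. The REV-ERB gene Nr1d1 had 3.94, 3.33, 7.93 and 3.77 CPM in KO, against 76.7, 101.3, 85.8 and 96.9 CPM in WT. No KO animal came near any WT animal, and KO replicate 3 was the highest of its group. The log2 fold change of Nr1d1 was -4.26 ± 0.48 (SE; adjusted p = 1.77e-08), which was 19.1-fold lower in KO. Its paralog Nr1d2 had 20.4, 18.1, 30.5 and 19.5 CPM in KO, against 80.2, 76.5, 70.6 and 74.0 CPM in WT. Again the groups did not overlap, with a log2 fold change of -1.77 ± 0.26 (adjusted p = 1.57e-05).

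Among the repressors of the first loop, Cry1 had 78.6, 95.9, 103.8 and 93.1 CPM in KO, against 25.8, 25.7, 34.2 and 33.3 CPM in WT. Every KO animal was above every WT animal, and the log2 fold change was 1.64 ± 0.22 (adjusted p = 1.63e-06). Per2 had 16.8, 26.9, 34.2 and 16.5 CPM in KO, against 3.52, 2.53, 6.63 and 3.80 CPM in WT, without overlap, a log2 fold change of 2.51 ± 0.50 (adjusted p = 0.00225). Cry2 had 87.4, 93.2, 141.4 and 106.4 CPM in KO, against 55.4, 59.7, 67.7 and 64.7 CPM in WT (log2 fold change 0.79 ± 0.17, adjusted p = 0.00487). The groups of Cry2 did not overlap, but its call ended without KO replicate 3 (adjusted p = 0.0601). The output factor Tef, a PAR bZIP protein that activates genes through D-boxes, had 157.7, 159.1, 173.4 and 164.6 CPM in KO, against 79.3, 61.4, 61.8 and 61.7 CPM in WT. All KO animals were above all WT animals, and the log2 fold change was 1.31 ± 0.20 (adjusted p = 2.38e-05). Nr1d1, Nr1d2, Cry1, Per2 and Tef kept their calls when any 1 of the 8 libraries was left out.

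The other 11 core clock genes were not called at this time point. Npas2, the paralog that can stand in for CLOCK, had 70.2, 65.9, 111.4 and 78.6 CPM in KO, against 47.9, 46.8, 44.6 and 40.6 CPM in WT, without overlap but with an adjusted p of 0.150. Dbp, another PAR bZIP factor, had 7.23, 4.715, 5.39 and 5.84 CPM in KO, against 3.34, 1.87, 2.76 and 2.40 CPM in WT (log2 fold change 1.16 ± 0.48, adjusted p = 0.224). For Hlf, the remaining PAR bZIP factor, the log2 fold change was 0.49 ± 0.20 (adjusted p = 0.216), again without overlap. Per3 averaged 20.7 ± 1.93 CPM in KO and 21.8 ± 2.45 CPM in WT (SD, n = 4 each), with overlapping values and a log2 fold change of -0.07 ± 0.29. Clock, Rora (an ROR activator), Ciart and Bhlhe41 (repressors of CLOCK-BMAL1 activity) had log2 fold changes between -0.15 and 0.13 with overlapping values. Values also overlapped for Per1, Nfil3 (a repressor at D-boxes) and Bhlhe40 (a paralog of Bhlhe41): Per1 ran from 95.5 to 437 CPM in KO and from 62.1 to 249 CPM in WT. KO replicate 3 was the highest KO animal for Per1, Nfil3, Bhlhe40 and Rora.

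**Figure D2:**
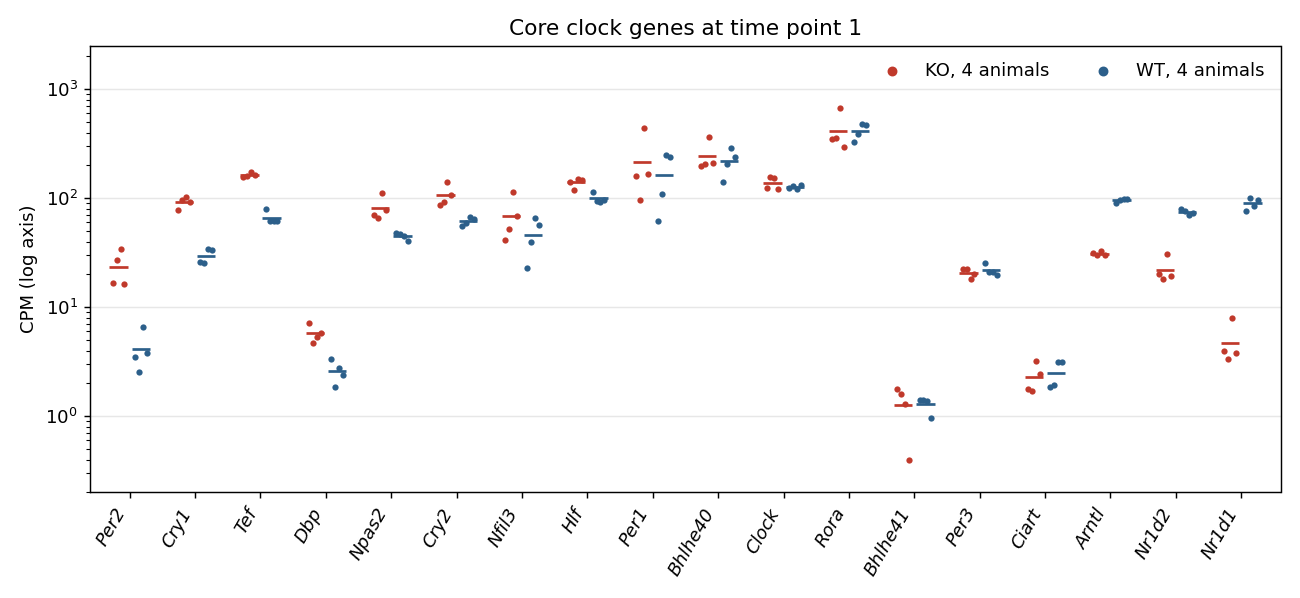
CPM (log axis) of 18 core clock genes in single animals at time point 1, KO in red to the left of WT in blue, with a bar at each group mean. Genes are ordered by log2 fold change. The groups do not overlap for Per2, Cry1, Tef, Dbp, Npas2, Cry2 and Hlf (KO higher) and for Arntl, Nr1d2 and Nr1d1 (KO lower).

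The promoters of 4 of these genes are shown because they carry the elements named above, from 250 bases before to 50 after the RefSeq start of the gene (build GRCm38.p6), 5′ to 3′ on the gene's own strand. Capitals mark the match: AACGTG, the reverse complement of the E′-box CACGTT, for Nr1d1 (chr11:98775328-98775627, minus strand), the E-box CACGTG for Cry1 (chr10:85185005-85185304, minus strand) and Tef (chr15:81802423-81802722, plus strand), and the ROR element TAGGTCA for Arntl (chr7:113207261-113207560, plus strand).
Nr1d1: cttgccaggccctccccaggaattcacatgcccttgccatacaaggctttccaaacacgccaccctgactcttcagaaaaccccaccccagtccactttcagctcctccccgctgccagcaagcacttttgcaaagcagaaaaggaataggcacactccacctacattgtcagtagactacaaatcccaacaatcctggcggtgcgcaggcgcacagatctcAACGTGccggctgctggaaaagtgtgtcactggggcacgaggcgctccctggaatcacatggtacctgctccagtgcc
Cry1: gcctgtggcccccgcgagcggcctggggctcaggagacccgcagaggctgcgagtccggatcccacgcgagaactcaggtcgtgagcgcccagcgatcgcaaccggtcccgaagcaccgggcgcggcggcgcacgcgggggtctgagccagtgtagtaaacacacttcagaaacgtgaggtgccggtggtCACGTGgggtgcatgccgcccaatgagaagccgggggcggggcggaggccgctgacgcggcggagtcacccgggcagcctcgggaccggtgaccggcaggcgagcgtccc
Tef: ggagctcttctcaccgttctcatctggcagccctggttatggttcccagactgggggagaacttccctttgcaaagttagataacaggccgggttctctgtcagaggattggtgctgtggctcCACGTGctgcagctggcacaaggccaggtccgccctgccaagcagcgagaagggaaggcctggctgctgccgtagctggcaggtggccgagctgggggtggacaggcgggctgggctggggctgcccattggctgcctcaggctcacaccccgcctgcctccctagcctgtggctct
Arntl: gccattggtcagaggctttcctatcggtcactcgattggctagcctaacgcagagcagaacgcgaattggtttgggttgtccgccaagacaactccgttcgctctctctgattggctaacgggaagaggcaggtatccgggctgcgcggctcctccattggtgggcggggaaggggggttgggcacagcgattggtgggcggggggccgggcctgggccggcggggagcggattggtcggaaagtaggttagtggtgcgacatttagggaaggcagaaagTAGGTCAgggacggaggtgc
The matches begin at positions -28 (Nr1d1), -60 (Cry1), -127 (Tef) and 30 (Arntl), counted from the start base as 0. Both strands were searched. Capitals mark only the element named for each gene, and the Cry1 promoter also holds AACGTG, left in lower case. Of 18 core clock genes, 16 had a promoter in the RefSeq table, and 5 of these (31.2%) held CACGTG, against 1312 of 11881 genes tested (11.04%). CACGTG stood in 12 of 100 promoters of genes called higher in KO (12.0%) and in 6 of 121 promoters of genes called lower (4.96%). CACGTT stood in 7 (7.00%) and 4 (3.31%) of them, against 726 genes tested (6.11%). A ROR element (TAGGTCA or TGGGTCA) stood in 4 (4.00%) and 5 (4.13%), against 760 (6.40%). The D-box TTATGTAA stood in 0 of the 100 and 1 of the 121, against 84 genes tested (0.707%).

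Time point 1 was the lowest of the 6 WT means for 9 core clock genes: Per1, Per2, Per3, Cry2, Dbp, Tef, Hlf, Bhlhe40 and Ciart. The KO mean of Tef lay between 140.2 and 163.7 CPM over the 6 time points, whereas the WT mean was 66.0 CPM at time point 1 and 575 CPM at time point 3. The KO mean of Dbp lay between 4.97 and 5.81 CPM, against WT means from 2.59 CPM at time point 1 to 127 CPM at time point 3. KO means at time point 1 lay within the range of the 6 WT means for Arntl, Per1, Per2, Cry2, Rora, Dbp, Tef, Hlf and Bhlhe40. They lay above that range for Clock, Npas2, Cry1 and Nfil3, and below it for Per3, Nr1d1, Nr1d2, Bhlhe41 and Ciart.

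**Figure D3:**
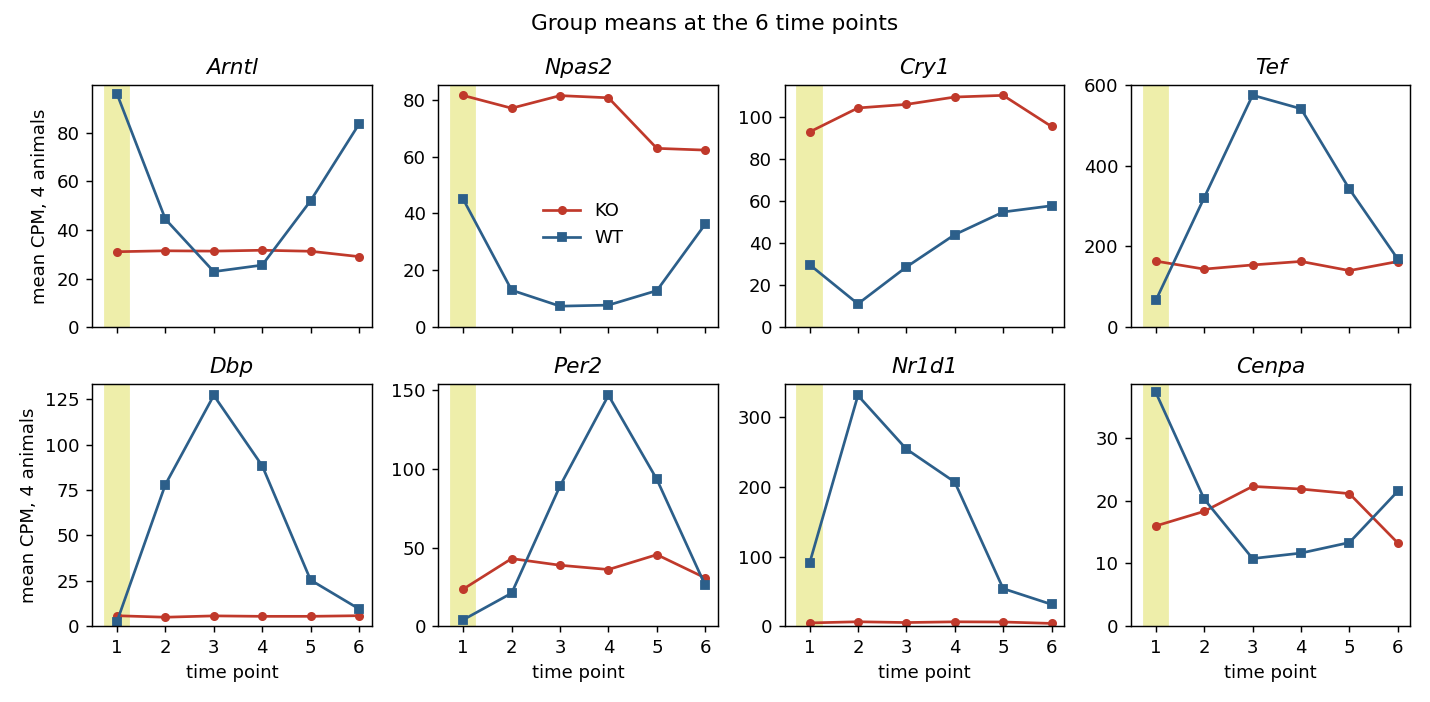
Mean CPM of 4 animals at each of the 6 time points for 7 clock genes and the centromere gene Cenpa, KO as red circles and WT as blue squares, with time point 1 shaded. At time point 1 WT stands at its lowest mean for Tef, Dbp and Per2 and at its highest for Arntl, Npas2 and Cenpa, the KO mean of Cry1 lies above its WT mean at each time point, and the KO lines of Arntl, Tef, Dbp and Nr1d1 run nearly level.

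The KO minus WT difference at time point 1 was tested against its mean over the other 5 time points, which asks whether the genotype effect depends on this time of sampling. Over all genes 116 (0.626%) were called, 49 with a more positive and 67 with a more negative difference at time point 1. Apart from Arntl, 10 of 17 core clock genes were among them. The largest was Dbp, at 4.24 ± 0.54 on the log2 scale (adjusted p = 1.00e-06): the KO minus WT log2 fold change was 1.16 at time point 1 and -3.97, -4.48, -4.02, -2.22 and -0.72 at time points 2 to 6. Tef differed by 2.54 ± 0.22 (adjusted p = 2.71e-12), with 1.31 at time point 1 and values from -1.90 to -0.05 at the others. Per2 differed by 3.11 ± 0.54 (adjusted p = 0.000693), and its log2 fold change was -2.02 at time point 4. Per3 differed by 2.53 ± 0.33 (adjusted p = 1.58e-06): it was lower in KO at each of the other 5 time points and level with WT at time point 1. Npas2 went the other way, at -1.64 ± 0.35 (adjusted p = 0.00766), and its KO excess was 2.29 to 3.46 on the log2 scale at time points 2 to 5. At time point 6 that excess was 0.78, close to the 0.86 of time point 1.

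Cry1 was called higher and Nr1d1 and Nr1d2 lower in KO at all 6 time points. The size of the difference varied, with log2 fold changes of Cry1 between 0.73 at time point 6 and 3.24 at time point 2. Time point 1 departed from the mean of the other 5 by 0.01 ± 0.23 for Cry1 and by 0.22 ± 0.48 for Nr1d1, neither called. For Nr1d2 it departed by 1.38 ± 0.28 (adjusted p = 0.00602), with log2 fold changes from -3.86 to -2.18 at the other time points, so its decrease in KO was smallest at time point 1. Against time point 4 alone, 121 genes (0.653%) differed, 9 core clock genes apart from Arntl among them, with Dbp at 5.18 ± 0.66 and Per2 at 4.54 ± 0.68 on the log2 scale. RE animals had 104.9 ± 44.5 CPM of Nr1d1, 27.5 ± 3.00 CPM of Cry1 and 260 ± 42.0 CPM of Tef at time point 1 (SD, n = 4), given without a test.

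Outside the clock, the largest increases among called protein-coding genes whose log2 CPM averaged 1 or more and whose groups did not overlap were those of F3, Igf2bp2, Fcgr3, Ankfn1, Slc46a2, Osgin1, Mrgprb2, Chn2, Bend4, Abhd12b and Sqor. F3, the tissue factor that starts blood clotting, had 30.6, 24.9, 26.6 and 10.05 CPM in KO, against 5.54, 4.96, 8.56 and 5.52 CPM in WT (log2 fold change 1.91 ± 0.46, adjusted p = 0.0182). KO replicate 4 lay closest to WT, and the call was kept in 4 of the 8 leave-one-out fits (highest adjusted p = 0.0860, without WT replicate 2). Igf2bp2, an RNA-binding protein of growth-factor transcripts, had 6.21, 5.27, 7.93 and 6.38 CPM in KO, against 1.62, 2.31, 1.83 and 2.08 CPM in WT. All KO animals were above all WT animals (log2 fold change 1.71 ± 0.33, adjusted p = 0.00138). Fcgr3, a receptor for immunoglobulin G on myeloid cells, averaged 5.63 CPM in KO and 1.83 CPM in WT (log2 fold change 1.62 ± 0.31). Mrgprb2, a receptor best known from mast cells, had 14.9, 16.4, 14.1 and 14.9 CPM in KO, against 6.31, 7.71, 6.68 and 5.81 CPM in WT (log2 fold change 1.18 ± 0.16, adjusted p = 2.77e-06). Markers of Langerhans cells, the resident antigen-presenting cells of the epidermis, had 0 of 8 members called, with a summed level of 319 to 634 CPM in KO and 336 to 432 CPM in WT; their part in the Fcgr3 difference was not tested.

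Igf2bp2, Fcgr3, Mrgprb2, Chn2 (a GTPase-activating protein for Rac) and Bend4 kept their calls in each leave-one-out fit. Slc46a2 and Osgin1, an oxidative-stress gene, had log2 fold changes of 1.47 ± 0.39 and 1.24 ± 0.34 and kept the call in 2 of 8 fits each. Without KO replicate 3, which had 27.1 CPM of Osgin1 against 9.57 to 13.6 CPM in the other KO animals and 5.09 to 7.83 CPM in WT, the adjusted p of Osgin1 was 0.304. Ankfn1 kept its call in 1 fit of 8, Sqor, a mitochondrial sulfide oxidase, in 2, and Abhd12b in 3 (highest adjusted p = 0.161, 0.173 and 0.0897).

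Among the largest decreases within the same limits, Igfbp5, which binds insulin-like growth factors, had 1.15, 0.749, 1.53 and 0.467 CPM in KO, against 5.78, 8.65, 11.7 and 7.97 CPM in WT. The groups did not overlap (log2 fold change -3.13 ± 0.51, adjusted p = 0.00014). With Igf2bp2 it was 1 of 2 called genes among the 14 tested members of the IGF list, whose median log2 fold change was -0.0001 beside 0.0114 for all genes. Trpm3, a cation channel, had 2.23, 3.13, 3.08 and 2.87 CPM in KO, against 7.66, 12.1, 9.998 and 11.3 CPM in WT (log2 fold change -1.86 ± 0.33, adjusted p = 0.000576). Neto2, known as an auxiliary subunit of kainate receptors, fell by 1.61 ± 0.31 on the log2 scale (adjusted p = 0.00141). Both genes kept their calls in each leave-one-out fit. The arylsulfatase gene Arsi fell by 1.57 ± 0.38, and its call ended without KO replicate 3 (adjusted p = 0.0689).

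Across the whole table, 27 genes were called in the same direction at all 6 time points, 14 higher and 13 lower in KO, and 24 of them were protein-coding. Besides Nr1d1, Nr1d2, Cry1, F3, Igf2bp2, Fcgr3, Slc46a2, Mrgprb2, Abhd12b, Igfbp5, Trpm3, Cdc25b, Ttc9 and Arsi, they include Mcam, an adhesion molecule. Named after its values were seen, Mcam had 5.80, 7.57, 11.2 and 7.44 CPM in KO, against 17.9, 19.3, 20.7 and 18.7 CPM in WT (log2 fold change -1.26 ± 0.24, adjusted p = 0.00123). Mt4, a metallothionein of stratified epithelia that was likewise chosen after its values were seen, averaged 118 CPM in KO and 62.2 CPM in WT (log2 fold change 0.92 ± 0.26, adjusted p = 0.0481), and its call was kept in 0 of the 8 leave-one-out fits (highest adjusted p = 0.173, without KO replicate 4). Only 3 of the 27 also had a called difference between time point 1 and the other 5. In contrast, 170 of the 361 genes were called at time point 1 and at no other time point, which alone does not show a difference between time points. By the test of the difference from the other 5 time points, 62 of the 361 were called.

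Genes of G2 phase and mitosis were the list with the most decreases. Of 32 members tested, 17 were called lower and 0 higher in KO, and 31 had negative log2 fold changes, with a median of -1.21 beside 0.0114 for all genes. The 4 KO and 4 WT values did not overlap in any of the 32, with KO below WT in 31, against 12.6% of all genes without overlap and 5.53% with KO below WT. The single exception was the spindle checkpoint kinase gene Ttk, named after its values were seen, with 64.8, 60.1, 43.4 and 54.2 CPM in KO against 36.0, 39.3, 37.0 and 37.6 CPM in WT (adjusted p = 0.288). The summed level of the list was 602, 888, 647 and 576 CPM in KO, against 1186, 1648, 1548 and 1424 CPM in WT. KO replicate 2 was the highest KO animal in 31 of 32 members, and WT replicate 2 the highest WT animal in 27.

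Cenpa, the histone variant of centromeres, had 14.1, 20.1, 16.6 and 13.1 CPM in KO, against 38.6, 39.5, 36.1 and 34.7 CPM in WT (log2 fold change -1.22 ± 0.29, adjusted p = 0.0175). Aurka, a kinase of spindle assembly, had 5.93, 9.10, 7.49 and 7.98 CPM in KO, against 13.0, 17.1, 15.6 and 16.6 CPM in WT (-1.03 ± 0.26, adjusted p = 0.0256). In both genes each KO animal lay below each WT animal. Ccnf (cyclin F) and Kif20a, a kinesin of cell cleavage, fell by 0.92 ± 0.23 and 1.29 ± 0.33 on the log2 scale. The 15 largest decreases within the limits on level and overlap given above also held Aspm, Pif1, Cdkn3, Cdc25c, Prr11, Hmmr and Arhgef39, with log2 fold changes from -1.59 to -1.48. Of these, Aspm and Hmmr act at the spindle, Cdc25c and Cdkn3 are phosphatases of the cell cycle, and Pif1 is a DNA helicase. Mki67, the gene of the proliferation marker Ki-67, had 112, 188, 124 and 91.3 CPM in KO, against 232, 334, 309 and 273 CPM in WT, and was not called (adjusted p = 0.106).

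The number of mitosis genes called depended on single animals, while the size of the difference did not. Without KO replicate 1, KO replicate 4 or WT replicate 2, 0 members were called; without KO replicate 3, WT replicate 3 or WT replicate 4, 1 was; without KO replicate 2, 16; and without WT replicate 1, 17. The median log2 fold change of the list stayed between -1.38 and -1.15 in these 8 fits. All 32 members had an unadjusted p under 0.05 in the fit of all libraries, against 2593 of the 18538 genes tested. Cdc25b, the phosphatase that activates CDK1 at entry into mitosis, is not a member of the list. It had 26.0, 30.2, 20.6 and 24.5 CPM in KO, against 80.2, 76.0, 73.5 and 72.1 CPM in WT (log2 fold change -1.57 ± 0.19, adjusted p = 8.51e-08). It kept its call in each leave-one-out fit, and it was called lower in KO at all 6 time points, with log2 fold changes from -1.71 to -1.06. RE animals had 77.0 ± 8.70 CPM of Cdc25b and 22.1 ± 6.10 CPM of Cenpa.

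**Figure D4:**
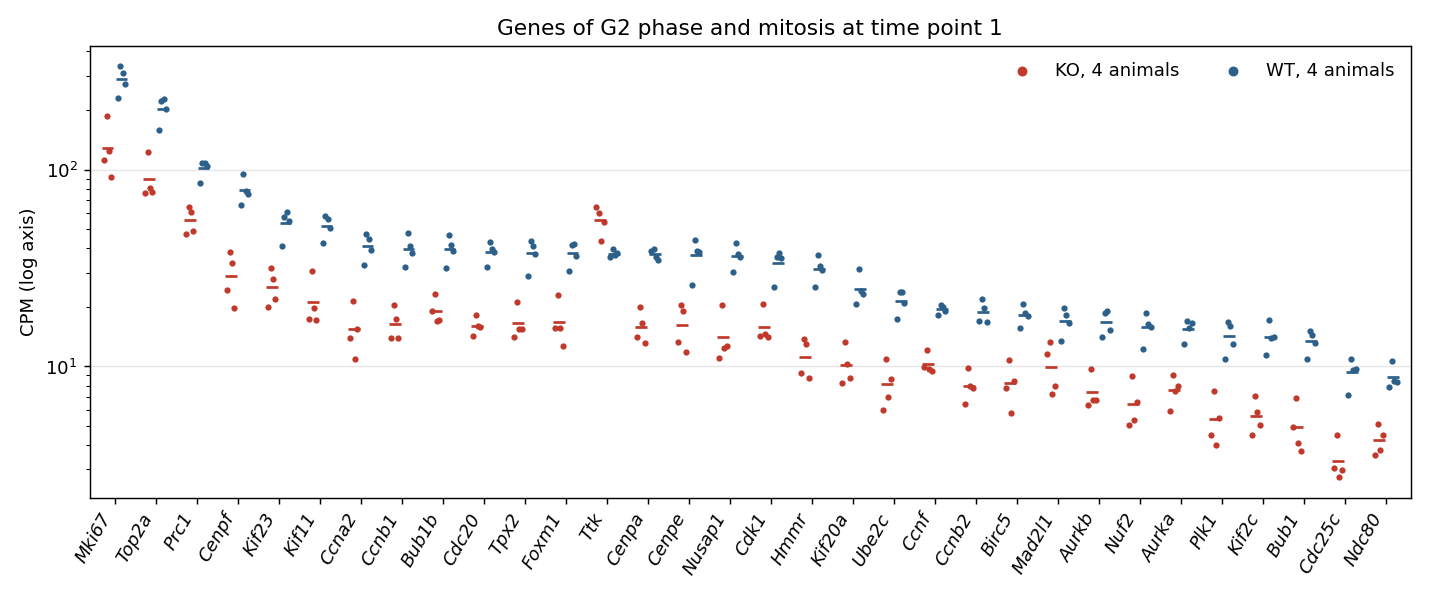
CPM (log axis) of the 32 genes of G2 phase and mitosis in single animals at time point 1, KO in red to the left of WT in blue, with a bar at each group mean, ordered by WT mean. KO lies below WT without overlap in 31 genes, and Ttk is the 1 gene with KO above WT.

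The promoters of Cenpa and Aurka are shown because the cell cycle homology motif TTTGAA, known from genes of late cell cycle phases, was found in many of them; this motif and CCAAT were searched after the values were seen. The windows, strand and build are as above, and capitals mark TTTGAA, for Cenpa (chr5:30666636-30666935, plus strand) at position 16 and for Aurka (chr2:172370521-172370820, minus strand) at position 32.
Cenpa: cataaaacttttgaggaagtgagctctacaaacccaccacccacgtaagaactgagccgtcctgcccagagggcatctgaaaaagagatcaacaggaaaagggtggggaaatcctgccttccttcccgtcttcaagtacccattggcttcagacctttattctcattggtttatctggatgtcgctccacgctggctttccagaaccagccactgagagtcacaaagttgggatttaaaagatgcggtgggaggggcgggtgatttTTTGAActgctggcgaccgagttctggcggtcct
Aurka: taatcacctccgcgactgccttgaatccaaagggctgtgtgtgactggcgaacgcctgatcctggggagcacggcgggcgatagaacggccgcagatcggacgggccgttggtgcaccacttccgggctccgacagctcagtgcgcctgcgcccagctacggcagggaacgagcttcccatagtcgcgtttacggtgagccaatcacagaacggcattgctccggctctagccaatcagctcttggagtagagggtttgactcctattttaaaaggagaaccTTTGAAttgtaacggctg
TTTGAA, searched on both strands, stood in 19 of 26 mitosis genes with a promoter in the table (73.1%), against 1757 of 11881 genes tested (14.8%). CCAAT stood in 20 of the 26 (76.9%), against 5001 genes tested (42.1%), and in 13 of the 16 core clock genes with a promoter (81.25%); the TTTGAA motif stood in 0 of those 16 genes. TTTGAA stood in 41 of 121 genes called lower (33.9%) and 9 of 100 called higher in KO (9%).

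In WT, time point 1 was the highest of the 6 time points for all 32 mitosis genes, and the KO mean at time point 1 lay within the range of the 6 WT means for 29. Cenpa, for example, had KO means of 16.0, 18.3, 22.2, 21.8, 21.1 and 13.2 CPM at time points 1 to 6, against WT means of 37.2, 20.2, 10.8, 11.6, 13.3 and 21.5 CPM. The KO minus WT difference of Cenpa at time point 1 was lower than at the other 5 by 1.58 ± 0.32 on the log2 scale (adjusted p = 0.00624). It was more negative at time point 1, with a call, in 13 of the 32 members, and in 9 against time point 4 alone. The median log2 fold change of the list was -1.21, 0.32, 1.10, 0.34, -0.01 and -0.92 at time points 1 to 6. In KO, 17 members were called lower at time point 1, where 31 had negative values. At time point 3, 16 were called higher and all 32 had positive values. Of the 18538 genes tested, 361 were called at time point 1 and 1407 at time point 3, in either direction. Genes of S phase did not share this at time point 1: 0 of 30 were called, 1 had an unadjusted p under 0.05, and the median was 0.10. Their summed level was 633 to 953 CPM in KO and 761 to 883 CPM in WT. S phase medians were -0.47, -0.73 and -0.73 at time points 3, 4 and 5.

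**Figure D5:**
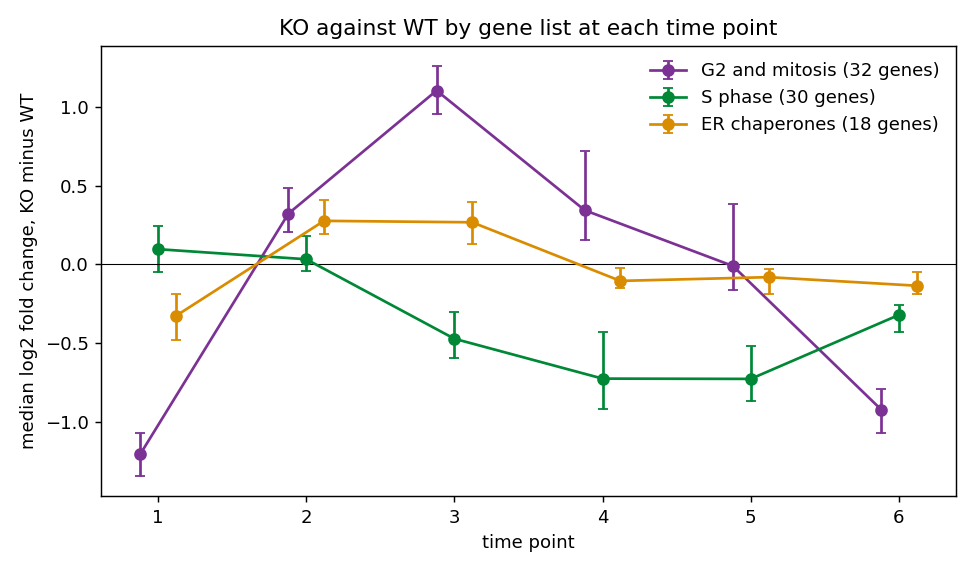
Median log2 fold change, KO minus WT, of 3 gene lists at the 6 time points, with bars from the lower to the upper quartile of the genes in the list. The 32 genes of G2 phase and mitosis lie at -1.21 at time point 1, then reach 1.10 at time point 3. The 30 genes of S phase lie near 0 at time point 1. The 18 chaperones of the endoplasmic reticulum lie at -0.33 at time point 1 and at 0.28 and 0.27 at time points 2 and 3.

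Chaperones of the endoplasmic reticulum, which fold secreted proteins, were lower in KO at time point 1 to a smaller extent. At time points 2 and 3 the median of this list was 0.28 and 0.27, with 3 and 4 members called higher in KO. Of 18 members tested, 3 were called, all lower, 16 had negative log2 fold changes and 13 an unadjusted p under 0.05, with a median of -0.33. Among all 18538 genes tested, 361 (1.95%) were called, 8875 had negative values and 2593 an unadjusted p under 0.05. Hsp90b1 (GRP94) had 367, 323, 331 and 350.2 CPM in KO, against 405, 479, 531 and 489 CPM in WT, without overlap (log2 fold change -0.47 ± 0.13, adjusted p = 0.0431). Sdf2l1 had 8.94, 6.24, 4.61 and 8.08 CPM in KO, against 11.2, 11.6, 16.3 and 14.8 CPM in WT (-0.95 ± 0.22, adjusted p = 0.0131). The disulfide isomerase gene Pdia4 had a log2 fold change of -0.41 ± 0.12 (adjusted p = 0.0481). Sdf2l1 kept its call in 5 of the 8 leave-one-out fits, and Hsp90b1 and Pdia4 in 1 each (highest adjusted p = 0.0744, 0.173 and 0.219, each without WT replicate 3). The 2 members with positive values were Atf4 and Herpud1, neither called.

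Of 18 interferon response genes, only Ddx58, which encodes the RNA sensor RIG-I, was called. It had 26.6, 20.6, 18.6 and 21.4 CPM in KO, against 13.9, 12.9, 11.4 and 13.9 CPM in WT, without overlap (log2 fold change 0.74 ± 0.16, adjusted p = 0.00708). Its call ended without KO replicate 1 (adjusted p = 0.0681). It was higher in KO at all 6 time points. The median of the interferon list was 0.00, with 9 members positive and 9 negative.

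No member passed in the remaining 20 pathway lists, among them those for epidermal differentiation, the basal layer, stress keratins, Notch and EGF receptor signalling, DNA repair, glycolysis, oxidative phosphorylation, lipid and cholesterol synthesis and the antioxidant response. In epidermal differentiation 29 of 31 members had positive values and 6 an unadjusted p under 0.05, with a median of 0.42. For this list and the immediate early genes below, the background is all 18538 genes tested. Of those, 9657 had positive values and 2593 an unadjusted p under 0.05. Spink5, a protease inhibitor of the cornified layer, had 473, 432, 355 and 279 CPM in KO, against 251, 252, 241 and 217 CPM in WT, without overlap, but an adjusted p of 0.184. KO replicate 1 was highest and KO replicate 4 lowest of the KO animals in Spink5, and the median of the list was 0.61 without KO replicate 4 and 0.25 without KO replicate 1. All 16 immediate early genes had positive values, with a median of 0.38, 3 with an unadjusted p under 0.05 and no call. Of these, the growth-arrest gene Btg2 had 868, 631, 789 and 781 CPM in KO, against 482, 463, 463 and 521 CPM in WT (adjusted p = 0.154). Spink5 and Btg2 were chosen after their values were seen. Apart from Arntl, 29 of 481 genes tested in all pathway lists were called (6.03%), against 1.95% of all genes. Most of the 29 were genes of G2 phase and mitosis (17) or of the core clock. The lists were chosen with earlier results of these data known, so the higher share is no test of them.

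The 8 genes outside the core clock with the smallest p for the difference from the other 5 time points were Cx3cl1, Ttc9, Fam76a, Cyp3a13, Rpl39, Leo1, Prdx6 and Fam234b. The chemokine gene Cx3cl1 had 35.8, 33.9, 43.3 and 34.4 CPM in KO, against 31.9, 32.4, 33.1 and 34.4 CPM in WT at time point 1, with overlap and a log2 fold change of 0.16. At the other 5 time points it lay between -0.92 and -0.31, a difference of 0.83 ± 0.12 (adjusted p = 7.13e-06). The antioxidant gene Prdx6, Fam76a, Cyp3a13 (a cytochrome P450) and Rpl39 (a ribosomal protein) likewise had more positive differences at time point 1, by 0.56, 0.44, 0.92 and 0.73 on the log2 scale. Ttc9 had 84.6, 81.2, 97.6 and 88.0 CPM in KO, against 52.8, 50.4, 46.9 and 49.96 CPM in WT, without overlap (log2 fold change 0.81 ± 0.16, adjusted p = 0.00206). Its KO excess was smaller than the mean of the other 5 time points by 1.04 ± 0.17, and at time point 6 it was 0.86. Leo1, of the PAF1 elongation complex, and Fam234b overlapped at time point 1 and were more positive at time points 2 to 5 but not at time point 6 (-0.04 and 0.06), a difference of -0.63 and -0.60. Rpl39 was called higher in KO at time point 1, but without KO replicate 4, which had 83.8 CPM against 56.7 to 58.0 CPM in the other KO animals and 43.5 to 47.6 CPM in WT, its adjusted p was 0.249.

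Some calls followed single libraries, and the genes of this paragraph were chosen after their values were seen. In all, 10 short structured RNA genes were called lower in KO, among them the 7SL RNA genes Rn7s1 and Rn7s2, the RNase P RNA gene Rpph1 and the U1 RNA gene Rnu1a1. Rn7s1 had 0.248, 0.0555, 0.170 and 0.267 CPM in KO, against 0.0795, 1.87, 0.120 and 26.7 CPM in WT. WT replicates 4 and 2 were high, and the other WT animals were at the KO level. None of the 10 was called without WT replicate 4. Of 1324 processed pseudogenes tested, 59 were called (4.46%, against 1.95% of all genes), 53 higher and 6 lower in KO. Their median log2 fold change was 0.11. The summed level of all 1324, called or not, was 35270, 34590, 37090 and 45340 CPM in KO, against 32300, 32330, 33040 and 32260 CPM in WT. Pseudogene calls numbered 9 without KO replicate 4, 21 without WT replicate 4, 22 without WT replicate 2, 29 without WT replicate 3 and 31 without KO replicate 3, and 42 to 57 without 1 of the others. Ribosomal protein genes, which many such pseudogenes resemble, had 3 of 80 called and a median log2 fold change of 0.22.

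Erythrocyte markers were the marker list that differed most between the groups. Their summed level was 72.7, 52.6, 53.9 and 169.5 CPM in KO, against 36.1, 30.5, 25.1 and 25.4 CPM in WT. The groups did not overlap (two-sided exact permutation test, p = 0.0286, the smallest 4 against 4 can give; 0.400 adjusted over 14 marker lists), and the log2 difference was 1.03 without KO replicate 4 and 1.41 with it. No single erythrocyte gene was called. Suprabasal keratinocyte markers summed to 16040 to 22850 CPM in KO and 16250 to 16780 CPM in WT (exact permutation p = 0.143), and melanocyte markers to 15.9 to 35.9 CPM in KO and 17.4 to 34.3 CPM in WT (p = 0.343). Counts of mitochondrial genes made up 2.53 to 2.87% of KO libraries and 2.32 to 2.52% of WT libraries (exact permutation p = 0.0286). KO libraries also had fewer genes with a count, 22740 ± 368 against 23480 ± 134 in WT (SD, n = 4 each). The part of red-cell RNA, of library depth or of mitochondrial RNA in the gene results was not tested.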

How the data were processed

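RNA of interfollicular epidermis, lifted off the dermis of back skin with the enzyme dispase per the labels' protocols, was sequenced in 72 libraries, 1 animal each. The deposited files hold raw counts of reads per Ensembl gene, made by the authors with Trimmomatic, TopHat2 2.1.1 and featureCounts on GRCm38 (mm10), per the submitters' processing notes. The sources used here give neither the annotation, nor the strand setting, nor how multi-mapping reads were handled, so counts of antisense genes, pseudogenes and near-identical copies are uncertain. Of 46078 identifiers, 45143 had a symbol in GENCODE M21. Library totals ran from 24.5 to 95.0 M counts, and replicates among the 8 libraries all differed beyond sampling noise.

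From these counts, 1 edgeR quasi-likelihood model (edgeR 4.0.16, R 4.3.3, robust, TMM, 18 groups of genotype and time point, 54 residual degrees of freedom) was fitted to all 72 libraries after filterByExpr with a minimum count of 10, which kept 18538 genes. Contrasts were KO minus WT at time point 1, that difference minus its mean over the other 5 time points, and minus time point 4. Other time points entered only through these contrasts and the shared dispersion. P-values were adjusted by Benjamini-Hochberg over all 18538 genes, and an adjusted p under 0.05 is a call. Standard errors are the log2 fold change divided by the root of F. CPM are counts divided by the TMM-scaled library total. Marker sums were compared by a two-sided exact permutation test over 8 libraries, adjusted over 14 lists. The procedure was tested on simulated counts. Alternatives were DESeq2 1.42.0, limma voom 3.58.1, other scalings, filters and sets of libraries, a replicate block and leaving out each library.

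Named genes were 18 core clock genes, the 15 most increased and 15 most decreased protein-coding called genes without overlap whose log2 CPM averaged 1 or more, up to 4 called members of each list, and the 8 genes outside the core clock with the smallest p for the difference between time points. One gene that the rule names is not reported here. The members and gene lists were chosen with earlier results of these data known. Promoter sequences are from RefSeq (GRCm38.p6), in which 11881 of 18422 tested symbols had at least 1 promoter; a gene counts as holding a motif where any of its promoters does.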

Additional observations from a re-analysis of the deposited data

Results flagged for a closer look

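In groups of 4 animals, the highest or lowest animal was checked for a gap to its nearest neighbour, relative to the group's range, above Dixon's 95% critical value, which chance gives in about 1 of 20 groups; 13 of 146 groups showed one. In KO, the highest animals were 7.93 CPM for Nr1d1, 668.7 CPM for Rora and 366 CPM for Bhlhe40, all KO replicate 3. KO replicate 2 was the highest KO animal for Pif1 (5.30 CPM) and Cdc25c (4.49 CPM). KO replicate 4 was the highest for Cyp3a13 (70.2 CPM), Rpl39 (83.8 CPM) and the summed hair follicle markers (7753 CPM). In WT, the highest animals were 79.3 CPM for Tef (replicate 1), 114 CPM for Hlf (replicate 1), 8.56 CPM for F3 (replicate 3) and 43.7 CPM for Fam76a (replicate 2), and the lowest was 0.957 CPM for Bhlhe41 (replicate 4).

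The KO minus WT difference at time point 1 departed from its mean over the other 5 time points, by the test of that difference, in 31 named genes apart from Arntl. Among core clock genes the departure on the log2 scale was 4.24 for Dbp, 3.11 for Per2, 2.54 for Tef, 2.53 for Per3, 1.96 for Ciart, 1.63 for Bhlhe41, 1.38 for Nr1d2, 0.98 for Hlf, 0.87 for Cry2 and -1.64 for Npas2. Among genes of division it was -2.23 for Pif1, -1.90 for Aspm, -1.87 for Cdkn3, -1.86 for Prr11, -1.80 for Cdc25c, -1.73 for Arhgef39, -1.72 for Hmmr, -1.58 for Cenpa, -1.50 for Kif20a, -1.23 for Ccnf and -1.19 for Aurka. For the others it was 0.92 for Cyp3a13, 0.83 for Cx3cl1, 0.73 for Rpl39, 0.56 for Prdx6, 0.44 for Fam76a, -0.60 for Fam234b, -0.63 for Leo1, -0.64 for Hsp90b1, -1.04 for Ttc9 and -1.10 for Abhd12b.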

How the results depend on the processing

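The comparison of KO with WT at time point 1 gave 361 calls (186 higher, 175 lower, 123 of at least 2-fold), 116 for the difference from the other 5 time points and 121 for that from time point 4. With only the 8 libraries fitted, 696 genes were called (359 higher, 337 lower), and with the 48 KO and WT libraries 225 (108 higher, 81 of at least 2-fold). DESeq2 called 560 (292 lower), and 226 and 220 for the differences. Library totals as the scale gave 76 higher and 423 lower. Without the filter on low counts there were 168 calls (76 higher, 92 lower, 68 of at least 2-fold) and 74 for the difference from the other 5. Without 4 libraries of other groups that stand apart there were 675 (349 higher, 326 lower, 185 of at least 2-fold), and 249 for each difference. Limma voom gave 346 calls. Leaving out 1 of the 8 libraries gave 92 to 355 calls, 51 to 153 higher, 41 to 202 lower, 41 to 131 of at least 2-fold, 41 to 111 for the difference from the other 5 and 75 to 116 for that from time point 4; core clock calls apart from Arntl stayed at 5 or 6.

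Replicate numbers are shared by KO and WT, but the labels do not say what a number marks. The deviations of same-numbered animals correlated at 0.324, -0.038, 0.267 and 0.038, and those of differently numbered animals at -0.346 to 0.277. These values do not settle whether the numbers pair animals, and the main fit did not pair them. With a replicate block, 634 genes were called (376 higher), and 175 and 195 for the differences.

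Of 39 named genes called apart from Arntl, none changed direction in any alternative run, 15 kept the call in every alternative that tested them and 24 lost it in at least 1. Mitosis genes called lower numbered 30 with the 8 libraries alone, 29 with DESeq2, 4 with the 48 libraries and 3 without the filter. With the 8 libraries alone, 1 member was called higher in KO. The median log2 fold change of the list was -1.30 to -1.21 in these and the other scalings. The causes were not tested. With 4 animals a side, a p that misses the threshold does not show equal levels.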
